A study of Rattus norvegicus with 70 samples.

Results

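The cytochrome P450 enzymes of families 1 to 3 were described here in 5 organs of young adult rats exposed to bisphenols. Members were all rows of the gene table whose symbol starts with Cyp, a family number from 1 to 3, a subfamily letter and a gene number. This rule took 40 of the 17048 rows: 3 of family 1, 32 of family 2 and 5 of family 3. The rule used symbols only and no measured value. Members that are near copies of each other, such as Cyp2b1 and Cyp2b2 or Cyp2d1, Cyp2d3 and Cyp2d5, may have shared reads, and how the authors split them is not given in the sources used here.

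These enzymes are heme proteins of the endoplasmic reticulum that oxidise drugs, pollutants, steroids and fatty acids, with electrons from the reductase Por and cytochrome b5. Foreign compounds induce them through ligand-activated regulators: the aryl hydrocarbon receptor (AhR) acts on Cyp1a1, Cyp1a2 and Cyp1b1, the receptor CAR (gene Nr1i3) on Cyp2b1 and Cyp2b2, and the receptor PXR (gene Nr1i2) on Cyp3a genes. In rat liver many members also differ between the sexes, because growth hormone is secreted in pulses in males and more evenly in females.

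The animals were Sprague-Dawley rats sampled on postnatal day 63, and each group held rats of 1 sex and 1 treatment. The controls are labelled vehicle control, with no name given for the vehicle. In the BPA group the dams were given bisphenol A (BPA) by mouth at 500 mg/kg/day between gestational day 6 and day 6 of lactation, and the pups received 250 mg/kg/day from postnatal day 7 to 63. In the Mix group the dams' 500 mg/kg/day was made up of 160 BPA, 160 bisphenol F (BPF) and 180 bisphenol S (BPS), and the pups again received 250 mg/kg/day of the same mixture. Mix therefore holds less BPA than the BPA group, and BPF and BPS were analysed here only within Mix. Liver, kidney and thyroid came from both sexes, testis from males and ovary from females, with 3 rats per group apart from 2 vehicle and 2 BPA rats for the female kidney. The 70 libraries were 3′ tag libraries made from whole organs, so a lower value can mean fewer cells of a type or less RNA per cell, and the 2 cannot be told apart. Litters were culled to 3 pups per sex and dam, which dam a rat came from is not labelled, and rats of 1 dam may therefore sit in 1 group.

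Library totals ran from 4803807 to 10929957 counts. Levels are CPM, counts scaled to a common library total: plain CPM where organs or sexes are set side by side, and TMM-scaled CPM, which corrects for library composition, within 1 organ and sex or, where stated as joint, over both sexes of an organ. Levels were compared between libraries rather than between genes, apart from members named as most-read, which are so by their counts. A member was called where the adjusted p-value of edgeR's quasi-likelihood test, with Benjamini-Hochberg adjustment over all rows tested, was below 0.05. Where groups are said not to overlap, or 1 to lie above or below another, this describes the rats read. With 2 or 3 rats per group such separation can arise by chance, and the share of all rows showing it was not counted. Several libraries stood apart. Ribosomal RNA rows took 0.66 to 37.2% of counts, and in the kidney their share was 1.71 to 3.50% in the male vehicle libraries against 19.2 and 37.1% in the female ones. Each organ's own markers were present in all its libraries (hepatocyte markers 7.59 to 16.2% of counts in liver, thyroid follicle markers 2.70 to 10.8% in thyroid, germ cell markers 4.45 to 6.43% in testis). Hepatocyte markers also took 0.415% of counts in 1 female vehicle thyroid library, and sperm-cell markers took 1.58% in 1 male BPA thyroid library.

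The promoters of Cyp2c12 and Cyp2c13 are shown first because the pair lies on 1 chromosome, is alike in sequence and had opposite sex patterns in liver. The windows are from RefSeq, build GRCr8, 250 bases before to 50 after the gene start, 5′ to 3′ on the gene's strand. That of Cyp2c12 is chr1:248676985-248677284 and that of Cyp2c13 chr1:248787139-248787438, both on the minus strand. Capitals mark the bases not matched in the partner after global alignment, and 67.0% of the bases were identical.
Cyp2c12: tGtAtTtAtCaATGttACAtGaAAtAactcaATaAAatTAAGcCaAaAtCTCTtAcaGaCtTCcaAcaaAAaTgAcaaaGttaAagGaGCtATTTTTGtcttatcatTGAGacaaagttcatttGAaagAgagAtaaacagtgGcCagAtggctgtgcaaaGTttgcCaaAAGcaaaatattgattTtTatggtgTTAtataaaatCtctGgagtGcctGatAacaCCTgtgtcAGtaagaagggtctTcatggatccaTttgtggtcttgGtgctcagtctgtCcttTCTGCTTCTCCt
Cyp2c13: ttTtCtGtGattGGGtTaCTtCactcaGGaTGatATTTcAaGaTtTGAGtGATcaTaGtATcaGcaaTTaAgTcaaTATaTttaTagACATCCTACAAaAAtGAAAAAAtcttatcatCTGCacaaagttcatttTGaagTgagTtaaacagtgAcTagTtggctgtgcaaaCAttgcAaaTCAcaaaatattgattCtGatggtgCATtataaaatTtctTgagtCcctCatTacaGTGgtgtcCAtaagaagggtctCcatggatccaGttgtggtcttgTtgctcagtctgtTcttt

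Cyp2b1 and Cyp2b2, at chr1:90645869-90646168 and chr1:90722031-90722330 on the plus strand, had the most similar promoters among the 37 members with a promoter window. Of 300 bases, 275 were identical (91.7%). They are shown because both genes were highest in the same library of the female BPA livers and because near copies may have shared reads. Capitals again mark unmatched bases.
Cyp2b1: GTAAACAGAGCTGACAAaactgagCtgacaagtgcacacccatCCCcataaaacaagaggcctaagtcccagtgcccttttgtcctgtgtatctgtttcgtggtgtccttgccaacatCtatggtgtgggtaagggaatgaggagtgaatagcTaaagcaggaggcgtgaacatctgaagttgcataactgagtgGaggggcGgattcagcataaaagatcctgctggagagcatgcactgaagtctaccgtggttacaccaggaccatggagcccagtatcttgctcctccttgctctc
Cyp2b2: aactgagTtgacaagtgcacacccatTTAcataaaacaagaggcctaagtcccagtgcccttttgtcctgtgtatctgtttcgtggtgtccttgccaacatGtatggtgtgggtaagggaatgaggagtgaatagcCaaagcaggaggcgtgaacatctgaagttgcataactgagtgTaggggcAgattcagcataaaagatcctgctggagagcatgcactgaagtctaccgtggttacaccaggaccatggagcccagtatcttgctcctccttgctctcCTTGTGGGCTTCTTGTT

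The promoters of Cyp3a2 (chr12:14343808-14344107) and Cyp3a23/3a1 (chr12:14398754-14399053), both on the minus strand, were 84.7% identical. Capitals mark CAAAGTCCA, an element of the type bound by the liver receptor Hnf4a. Searched on both strands, it stood in 2 of the 37 member promoters, these 2, and in 0.391% of all 33469 promoters.
Cyp3a2: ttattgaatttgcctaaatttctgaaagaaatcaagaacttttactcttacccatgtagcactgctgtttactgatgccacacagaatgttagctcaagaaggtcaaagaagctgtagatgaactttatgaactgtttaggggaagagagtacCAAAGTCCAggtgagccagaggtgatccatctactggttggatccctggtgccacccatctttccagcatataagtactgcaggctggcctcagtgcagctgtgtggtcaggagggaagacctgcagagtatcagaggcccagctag
Cyp3a23/3a1: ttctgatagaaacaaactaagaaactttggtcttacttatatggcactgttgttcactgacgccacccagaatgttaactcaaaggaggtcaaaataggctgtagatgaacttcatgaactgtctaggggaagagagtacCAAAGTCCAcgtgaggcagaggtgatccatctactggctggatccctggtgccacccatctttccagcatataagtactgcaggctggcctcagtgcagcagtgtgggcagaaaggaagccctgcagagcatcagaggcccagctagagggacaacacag

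A second search looked for TTCNNNGAA, the form bound by the growth hormone-activated factor Stat5b. It matched in 3 of 37 member promoters (Cyp2b12, Cyp2j4 and Cyp2t1; 8.11%) against 8.87% of all promoters. The core of the AhR element, GCGTG, matched in 6 of 37 (Cyp1b1, Cyp2b1, Cyp2b2, Cyp2r1, Cyp2t1 and Cyp2u1; 16.2%) against 29.7% of all promoters. All motifs were searched on both strands and counted separately, without removing overlaps between them, and a match describes the letters only. No promoter window for Cyp1a1, Cyp2a2 or Cyp2c6v1 was in the set of promoters used here.

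Most members were liver transcripts. Of the 40 members, 35 had a median of at least 1 plain CPM over the libraries of some organ, and for 28 of these the organ with the highest median was liver. These medians pool both sexes and all treatments. Cyp2c24 is among the 28, at 1.10 CPM in liver and 0.744 in kidney. Only 13.3% of its counts came from liver, and its highest value was in a male Mix kidney. Together the members took 1.45 to 2.93% of all counts in liver, 0.155 to 0.487% in kidney and at most 0.0603% in any thyroid, testis or ovary library. Kidney had the highest median for Cyp1a1, Cyp2c23 (an arachidonic acid epoxygenase) and Cyp2r1 (a vitamin D hydroxylase), testis for Cyp2a3 and Cyp2s1, thyroid for Cyp2j10 and ovary for Cyp2u1. Cyp2c23 had a median of 1277 CPM in liver and 1951 CPM in kidney, and medians under 1 CPM in the other organs. Cyp2t1 was read in every organ, with medians of 35.9 CPM in liver, 33.0 in testis, 23.7 in ovary, 22.1 in thyroid and 20.8 in kidney, and 33.8% of its counts came from liver.

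Some members were hardly read. Cyp2b12, Cyp2b15, Cyp2b21 and Cyp2g1 each had under 50 counts over all 70 libraries, from 1 count for Cyp2b15 to 13 for Cyp2b21. Cyp1b1 had 133 counts in 24 libraries and passed the low-count filter in no treatment comparison. Cyp1a1 had 198 counts in 20 libraries.

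**Figure D1:**
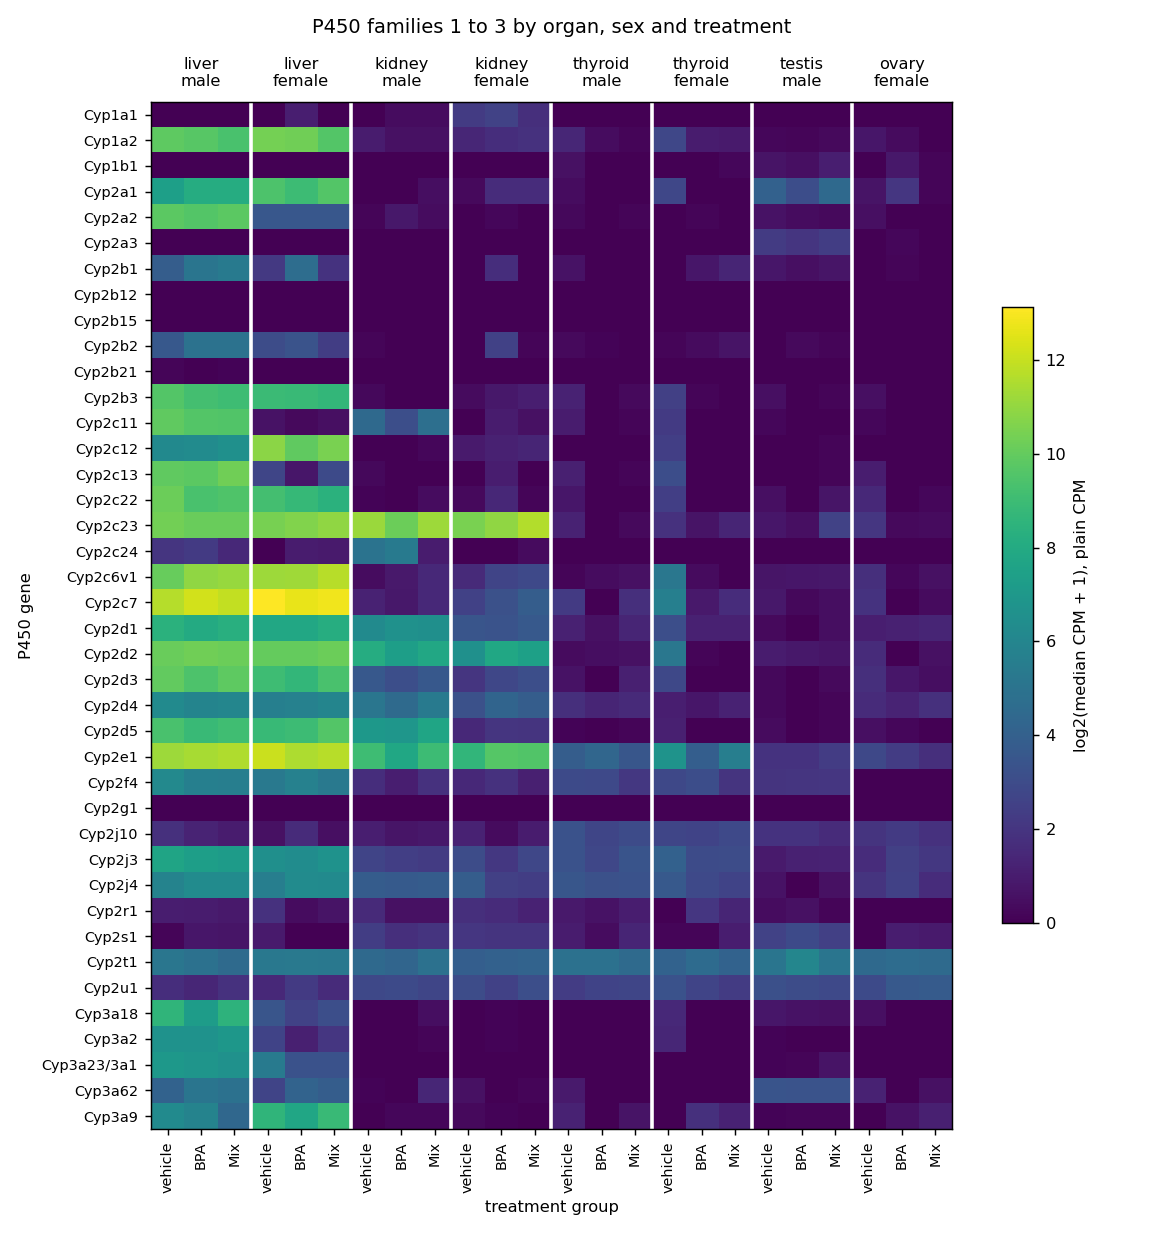
Heat map of log2(median plain CPM + 1) for the 40 members (rows) in the 24 groups of organ, sex and treatment (columns); brighter is higher. Most bright cells lie in the 6 liver columns, Cyp2c23 and Cyp2e1 are also bright in kidney, and the female vehicle thyroid column holds low levels of liver members.

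The first comparison was between the sexes in vehicle rats. In liver, 13 of the 32 members tested differed, 5 higher in females and 8 higher in males, against 4.23% of all 10044 rows called. Of these, 10 passed in each of the 23 alternatives run (other normalization, filter, tool or model, and each library left out); Cyp2c24, Cyp2c6v1 and Cyp2j3 did not pass in all of them. The median log2 difference, female over male, was -0.50 over the members tested and -0.02 over all rows.

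Among the members higher in females was Cyp2c12, a steroid sulfate hydroxylase known as the female-specific rat liver P450. Its plain CPM in the 3 female vehicle livers was 2110, 1816 and 1307, against 75.1, 57.2 and 97.5 in the males, so the groups lay far apart. The log2 difference was 4.59 ± 0.48 (SE, edgeR adjusted p = 1.23e-06). Cyp2a1, a testosterone hydroxylase, averaged 766 ± 139 CPM (SD, n = 3) in females and 172 ± 25.5 in males on the joint TMM scale (adjusted p = 2.38e-06). Cyp3a9, an estrogen-oxidising member of family 3, averaged 390 ± 73.2 CPM in females and 71.2 ± 4.72 in males (adjusted p = 0.000406).

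Cyp2c7, a retinoic acid hydroxylase, read 9249, 8455 and 8869 plain CPM in females and 2278, 4157 and 3240 in males. Every female value exceeded every male value, and the log2 difference was 1.58 ± 0.30 (adjusted p = 0.00199). Cyp2c6v1 was higher by a log2 of 1.15 ± 0.31 (adjusted p = 0.0377), a call lost in 6 of the 18 leave-one-out fits: without any 1 of the 3 female vehicle rats, the first or second male vehicle rat or the second male BPA rat (adjusted p from 0.0501 to 0.198). It was also lost with the replicate number as a block (adjusted p = 0.0548) and with the ribosomal RNA share as a covariate (0.161).

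The members higher in males were led by Cyp2c11, the male-specific testosterone hydroxylase of adult rats. It read 1364, 971 and 703 plain CPM in males and 0.723, 0.538 and 0.131 in females. Cyp2c13, a second male-specific steroid hydroxylase, read 1075, 966 and 732 in males and 7.23, 5.65 and 3.81 in females. This is the partner of Cyp2c12 in the promoter pair above, and its log2 difference of -7.24 ± 0.73 (adjusted p = 6.30e-07) had the opposite sign. Cyp2a2, a testosterone hydroxylase of male liver, read 884, 896 and 590 in males and 10.7, 14.5 and 7.87 in females (log2 difference -6.01 ± 0.29, adjusted p = 2.57e-12).

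In family 3, Cyp3a18 averaged 367 ± 54.8 CPM in males and 8.21 ± 4.24 in females (adjusted p = 9.21e-05). Cyp3a2, a male-predominant testosterone hydroxylase, averaged 95.7 ± 47.3 and 4.43 ± 2.11 (adjusted p = 2.38e-06). Its promoter neighbour in sequence, Cyp3a23/3a1, averaged 132 ± 44.0 in males and 43.3 ± 6.02 in females; its groups did not overlap, but the adjusted p was 0.0704. Cyp3a62 averaged 19.3 ± 5.35 in males and 6.21 ± 1.79 in females (adjusted p = 0.00430). Cyp2j3, a fatty acid epoxygenase, was lower in females by a log2 of -0.91 ± 0.22 (adjusted p = 0.0177), and Cyp2c24 by -3.99 ± 0.92 (adjusted p = 0.0129) at an average of 5.30 CPM in males. The call for Cyp2j3 was lost without the first or the third female vehicle rat or the first male vehicle rat (adjusted p from 0.0633 to 0.0954), and that for Cyp2c24 without the first or second female or the first male vehicle rat (adjusted p from 0.0615 to 0.125) and with the ribosomal RNA share as a covariate (0.0928).

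The other 19 members tested in liver did not pass between the sexes. Cyp2c22 was nearest after Cyp3a23/3a1, at a log2 difference of -1.12 (adjusted p = 0.0844). Cyp2e1, Cyp2d3, Cyp2f4, Cyp1a2 and Cyp2b1 had adjusted p-values from 0.111 to 0.251, and the remaining members, among them Cyp2b2, Cyp2b3, Cyp2c23, Cyp2d1, Cyp2d2, Cyp2d4, Cyp2d5, Cyp2j4 and Cyp2t1, had larger ones. The 8 members not tested there had too few liver counts to pass the filter on low values.

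**Figure D2:**
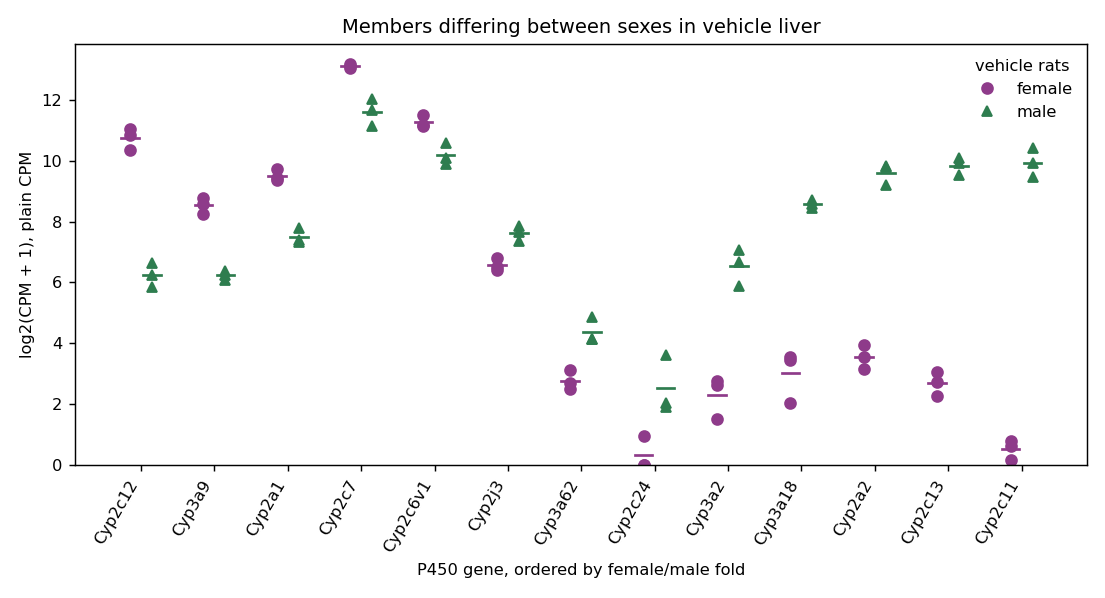
Vehicle liver values, log2(plain CPM + 1), of the 13 members called between the sexes (x axis, ordered by female over male fold); circles are female and triangles male libraries, bars are group means, n = 3 per sex. The 5 members on the left are higher in females and the 8 on the right in males, and the symbols of the sexes do not overlap.

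Of the genes that regulate these enzymes, 4 of the 20 tested were higher in female vehicle liver and 2 were lower. Of all 10044 rows, 4.23% were called. Cux2, a female-predominant repressor of male-biased liver genes, averaged 6.10 CPM in females and 0.151 in males (adjusted p = 4.78e-05). Bcl6, a male-predominant repressor of female-biased genes, averaged 1.96 and 30.8 (adjusted p = 0.000101). Onecut1, which acts on Cyp2c12, averaged 428 in females and 41.9 in males (adjusted p = 1.87e-07). Nr1i3, the receptor CAR, averaged 4.47 in females and 26.4 in males (adjusted p = 0.0125). The other 2 higher in females were Ghr, the growth hormone receptor, and Foxa2.

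In kidney, 6 of the 25 members tested differed between the sexes in vehicle rats, 1 higher in females and 5 in males, against 6.13% of all 11651 rows. The female group here was 2 rats, and the ribosomal RNA share differed between the sexes as given above. Cyp1a1, an AhR target, had 20 and 24 counts in the female libraries and 0 in each of the 3 male ones. Set against a floor of 3 counts per library, it was at least 11.7-fold higher in females (adjusted p = 0.00489). The gene of its receptor, Ahr, averaged 43.3 CPM in females and 14.5 in males (adjusted p = 0.00265).

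Cyp2c11, the male liver form, read 14.5, 21.04 and 23.8 plain CPM in the male kidneys and 0 in both female ones, at least 37.8-fold higher in males (adjusted p = 0.00898). Albumin, a hepatocyte transcript, read 5.39, 52.6 and 34.4 CPM in those male kidneys and 91.07 and 8.18 in the female ones, and Cyp2c13, another male liver form, read 0.220, 0.979 and 0 in the males. Cyp2c24 read 0 in both female kidneys and was at least 69.5-fold higher in males, but its adjusted p was 0.111.

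The other male-high kidney members were of the Cyp2d group, which includes the rat debrisoquine hydroxylase. Cyp2d5 averaged 125 ± 36.3 CPM in males and 2.23 ± 2.48 in females (n = 3 and 2, edgeR adjusted p = 0.000104). Cyp2d1 averaged 70.8 ± 6.51 and 10.4 ± 0.946 (adjusted p = 0.000113), Cyp2d4 30.1 ± 6.39 and 9.07 ± 1.71 (adjusted p = 0.00887), and Cyp2d3 9.28 ± 0.781 and 3.07 ± 0.191 (adjusted p = 0.0197). Near-identical sequence among Cyp2d1, Cyp2d3 and Cyp2d5 leaves it uncertain how far each count is the gene's own. With ribosomal RNA as a covariate Cyp2c11 and Cyp2d3 no longer passed and 4 members remained called, and without the second female vehicle rat 3 did (Cyp1a1, Cyp2d1 and Cyp2d5). Cyp2d3 was also lost without the first female or the second or the third male vehicle rat (adjusted p from 0.0539 to 0.0783).

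In thyroid, edgeR called none of the 25 members between the sexes (3 at an unadjusted p below 0.05, 0 by DESeq2), with 0% of all 12003 rows called. Of those rows, 1257 had an unadjusted p below 0.05.

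Treatment was compared in 8 organ and sex sets. Both treated groups were set against the same vehicle rats, and then against each other. Across these 24 comparisons edgeR called 1 member once, Cyp2c6v1 in the ovary. DESeq2 called at least 1 member in 11 of the 24. What follows gives the values behind those counts, organ by organ. The shares of all rows called are edgeR's. The share of all rows that DESeq2 called is not given here, so its member counts have no background to be read against.

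In male liver edgeR called 0 of 31 members for BPA against vehicle (0.228% of all rows called; 5 members at an unadjusted p below 0.05; 1 by DESeq2). For Mix against vehicle it called 0 (0.321% of all rows; 3 unadjusted; 0 by DESeq2), and for Mix against BPA 0 (0.0103%; 1 unadjusted; 0 by DESeq2). Of all 9669 rows, 733, 649 and 598 had an unadjusted p below 0.05, in the same order of comparisons. The members' median log2 change was 0.01 under BPA and 0.21 under Mix, beside -0.01 and -0.00 for all rows.

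Cyp2a1, the testosterone hydroxylase that was higher in females, had the smallest p in male BPA liver. It read 139, 186 and 178 CPM under vehicle and 324, 286 and 360 under BPA. The groups did not overlap, the log2 change was 0.94 ± 0.25 (SE) and the edgeR adjusted p was 0.281; DESeq2 called it, and so did edgeR without the first Mix rat. Under Mix it read 137, 292 and 267, which overlapped vehicle. Cyp3a62 read 24.4, 14.1 and 17.9 under vehicle and 39.2, 51.8 and 24.1 under BPA (log2 change 1.03 ± 0.29, adjusted p = 0.314), and 1 BPA value fell just inside the vehicle range.

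Cyp2c6v1 in male liver read 830, 920 and 1642 under vehicle, 2277, 2119 and 1816 under BPA and 1454, 2277 and 2198 under Mix (adjusted p = 0.414 and 0.458). Its BPA values all lay above vehicle. Cyp3a9 read 71.7, 64.1 and 72.4 under vehicle and 16.2, 20.5 and 66.5 under Mix, so 2 Mix rats were low and 1 was not; the adjusted p was 0.600, and without the third Mix rat the member was called against vehicle and against BPA. The male-type members Cyp2c11, Cyp2c13 and Cyp2a2 had log2 changes with intervals that included 0 under both treatments. Cyp2c11, for instance, read 914, 876 and 391 under BPA and 661, 776 and 968 under Mix, beside 1197, 827 and 757 under vehicle.

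The inducible members showed no call in male liver either. Cyp1a2, an AhR target, read 1335, 805 and 604 CPM under vehicle, 599, 878 and 1004 under BPA and 552, 689 and 936 under Mix. Cyp2b1, the phenobarbital-inducible CAR target, read 59.7, 11.6 and 12.7 under vehicle, 39.0, 72.9 and 10.3 under BPA and 37.4, 43.3 and 56.7 under Mix. Cyp3a23/3a1, the PXR target, read 98.5, 109 and 178, then 98.2, 119 and 126.8 under BPA and 79.7, 219 and 89.6 under Mix. In each of these 3 the groups overlapped. Cyp3a2 likewise overlapped, at 89.4, 49.1 and 142 under vehicle against 118, 182 and 52.2 under BPA. Cyp3a18 read 306, 352 and 414 CPM under vehicle, 103, 267 and 151 under BPA and 29.3, 441 and 331 under Mix; its BPA values lay below vehicle (adjusted p = 0.757), and its Mix values ran from the lowest to the highest of all.

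Of the most-read members, Cyp2c7 read 1999, 3541 and 3488 CPM under vehicle, 5496, 4141 and 5009 under BPA and 2986, 5295 and 3501 under Mix. Its BPA values lay above vehicle without passing (adjusted p = 0.578). Cyp2e1 read 2953, 1977 and 2229 CPM under vehicle, 3228, 2762 and 2054 under BPA and 1874, 3133 and 3403 under Mix, with overlap in both treatments. Cyp2a2 read 776, 764 and 636 CPM under vehicle, 871, 816 and 875 under BPA and 831, 947 and 1001 under Mix; both treated groups lay above vehicle by small margins (adjusted p = 0.846 and 0.782).

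The regulators Bcl6 and Onecut1 changed in these same male livers. Of 19 regulators tested, 1 rose and 1 fell under BPA (0.228% of all rows called), and 1 fell under Mix (0.321% of all rows called). Bcl6 averaged 30.0 CPM under vehicle, 2.95 under BPA (adjusted p = 0.00990) and 2.17 under Mix (adjusted p = 0.00370). Onecut1 read 49.1, 28.8 and 44.8 under vehicle and 121, 229 and 230 under BPA (adjusted p = 0.00311). Of the 19 other AhR, CAR and PXR targets tested, only Tsku fell, under both BPA and Mix (adjusted p = 0.0215 and 0.0402), and of the 17 genes of electron transfer and heme supply none passed in any liver treatment comparison.

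In female liver edgeR called 0 of 30 members for BPA against vehicle (0.419% of all rows called; 9 members at an unadjusted p below 0.05; 3 by DESeq2). For Mix against vehicle it called 0 (0.0523%; 3 unadjusted; 0 by DESeq2), and for Mix against BPA 0 (0%; 8 unadjusted; 1 by DESeq2). Of all 9554 rows, 1092, 632 and 621 had an unadjusted p below 0.05, in the same order. The members' median log2 change was -0.28 under BPA and -0.02 under Mix, beside 0.00 for all rows in both.

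Cyp3a62 had the smallest p for BPA. It read 5.43, 5.28 and 8.37 CPM under vehicle, 16.5, 22.4 and 9.59 under BPA and 15.1, 11.0 and 14.0 under Mix. Both treated groups lay wholly above vehicle, by a log2 of 1.35 ± 0.33 under BPA (adjusted p = 0.0997) and 1.07 ± 0.33 under Mix (adjusted p = 0.458). DESeq2 called it under BPA, and edgeR did without the third BPA rat.

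Cyp2a1 read 661, 772 and 925 CPM under vehicle and 487, 539 and 433 under BPA, a log2 change of -0.69 ± 0.19 (adjusted p = 0.136). Under Mix it read 809, 782 and 790, within the vehicle range. Cyp2c12, the female-specific form, read 2114, 2036 and 1437 under vehicle, 912, 862 and 1283 under BPA and 1009, 1863 and 1427 under Mix. The BPA values lay below all vehicle values (log2 change -0.87 ± 0.25, adjusted p = 0.171), and DESeq2 called both Cyp2a1 and Cyp2c12 here. Hepatocyte markers took 9.17 to 9.21% of counts in the female BPA livers, 11.2 to 14.1% in the vehicle ones and 7.59 to 11.5% in the Mix ones, and albumin, one of them, read 55335 to 61727 plain CPM under BPA and 78695 to 107859 under vehicle. Their part in the lower values under BPA was not tested.

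Cyp2b1 and Cyp2b2 were set apart by 1 library. Cyp2b1 read 11.4, 3.92 and 1.15 under vehicle, 230, 23.05 and 2.94 under BPA and 2.55, 1.43 and 8.77 under Mix. Cyp2b2 read 31.5, 7.99 and 3.90, then 163, 8.69 and 0.464 under BPA and 3.99, 2.20 and 15.6 under Mix. The log2 change of Cyp2b1 under BPA was 3.94 ± 1.13 (adjusted p = 0.165), and without the first BPA rat it was 1.25 (adjusted p = 0.627). Without the third BPA rat it was 4.50 and was called (adjusted p = 0.0408). In the same 3 BPA livers the gene of their receptor CAR, Nr1i3, read 35.8, 25.7 and 3.09 CPM, beside 4.47, 4.98 and 4.33 under vehicle; its part in the values was not tested.

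Cyp1a2 in female liver read 1803, 1505 and 1397 under vehicle, 1191, 1435 and 605 under BPA and 989, 811 and 739 under Mix. The Mix values lay below all vehicle values (log2 change -0.89 ± 0.27, adjusted p = 0.439). Cyp3a23/3a1 read 51.3, 44.0 and 38.1 under vehicle, 34.6, 8.46 and 8.20 under BPA and 8.08, 8.81 and 27.4 under Mix, again with both treated groups below vehicle (adjusted p = 0.303 and 0.533). The males' values of the same gene, given above, overlapped. Cyp3a2 read 5.80, 5.88 and 2.02 under vehicle and 1.17, 1.16 and 0.928 under BPA (adjusted p = 0.140). Cyp2d3, whose product belongs to the debrisoquine group, was higher under Mix than under BPA by a log2 of 0.62 ± 0.19 (adjusted p = 0.566).

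Cyp2c7, the most-read member of female liver, read 9266, 9478 and 9756 CPM under vehicle, 9488, 6154 and 5553 under BPA and 6300, 12352 and 7403 under Mix. Cyp2e1 read 6569, 4831 and 2690 CPM under vehicle, 2240, 4103 and 2685 under BPA and 4102, 3392 and 3287 under Mix, and Cyp3a9 read 377, 489 and 337 CPM under vehicle, 341, 208 and 160 under BPA and 450, 485 and 244 under Mix. In each of these 3 members the groups overlapped. The male-type forms stayed low: Cyp2c13 read 7.25, 6.33 and 4.19 CPM under vehicle, 0.213, 0.695 and 8.51 under BPA and 1.11, 7.91 and 6.82 under Mix, and Cyp2a2 10.7, 16.3 and 8.66 CPM under vehicle, 10.1, 9.85 and 10.2 under BPA and 9.19, 11.0 and 20.2 under Mix.

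Of the other AhR, CAR and PXR targets, Gstm1, a glutathione transferase, rose under BPA in female liver, from 567, 553 and 453 CPM to 1578, 829 and 1206 (adjusted p = 0.0406). It was the only one of 19 to pass there (0.419% of all rows called), and under Mix none did (0.0523% of all rows called).

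**Figure D3:**
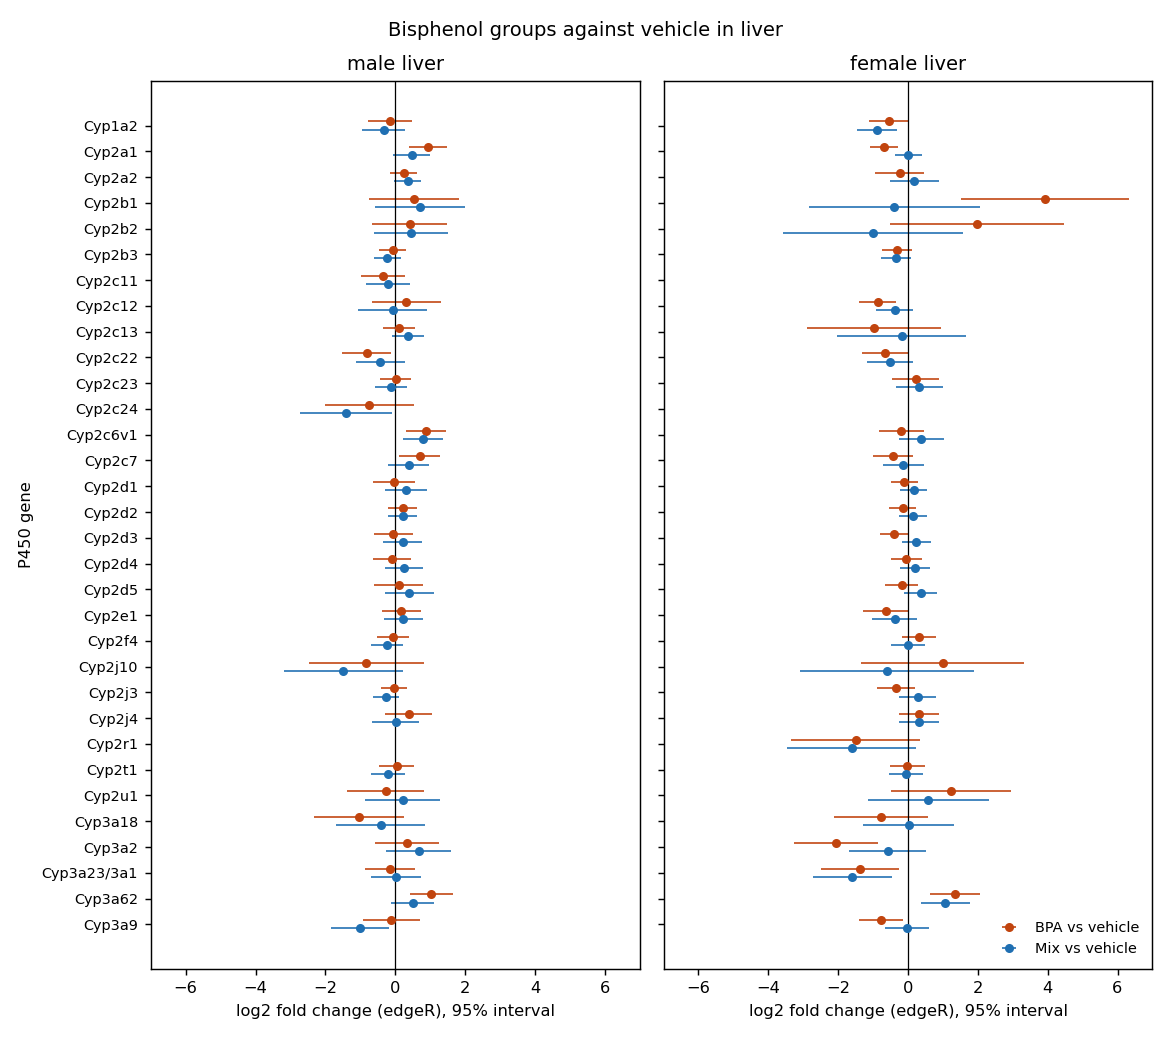
Log2 fold change of each member tested in liver (rows), BPA against vehicle in red and Mix against vehicle in blue, with edgeR 95% intervals, males left and females right; both contrasts share the vehicle rats. No member passed the adjusted threshold, and the widest intervals belong to Cyp2b1, Cyp2b2 and members with few counts.

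Whether the effect of treatment differed between male and female liver was tested by an interaction over all 6 liver groups. For BPA, 1 of 32 members was called, against 0.209% of all rows. This was Cyp2a1, with a difference of -1.63 ± 0.32 on the log2 scale (female effect minus male effect, adjusted p = 0.0307): it averaged 168 CPM in vehicle and 323 in BPA males, and 786 and 486 in females. Hepatocyte markers were lower in every BPA female than in every vehicle female, as given above, while in males they took 14.1 to 14.5% of counts under BPA and 13.2 to 14.1% under vehicle; their part in the difference was not tested. The call held in all 5 other fits and was lost in 9 of 18 leave-one-out fits; over the 18 the difference stayed between -1.75 and -1.49. The libraries whose loss ended the call were the first and the third BPA females, the second and the third vehicle females, all 3 BPA males, and the first and second vehicle males (adjusted p from 0.0616 to 0.117). In the interaction of sex and Mix, 636 of all 10044 rows had an unadjusted p below 0.05. For Mix edgeR called none of the 32 members (0.189% of all rows; 2 at an unadjusted p below 0.05; 0 by DESeq2), and Cyp3a23/3a1 had the smallest p (difference -1.61 ± 0.69, adjusted p = 0.730).

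**Figure D4:**
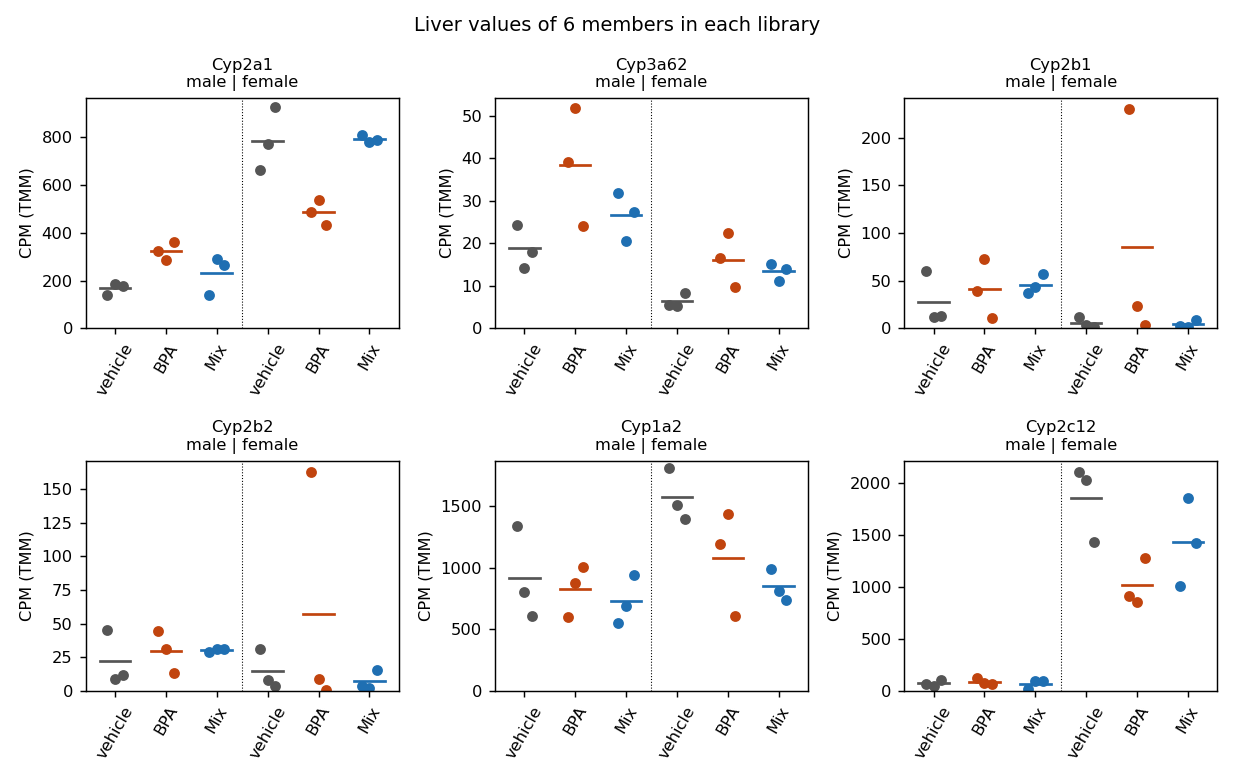
TMM-scaled CPM of 6 members in each liver library, males left and females right of the dotted line, with vehicle in grey, BPA in red and Mix in blue; bars are group means, n = 3. Cyp2a1 is higher under BPA than vehicle in males and lower in females, and 1 female BPA library carries 230 CPM of Cyp2b1 and 163 of Cyp2b2.

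In male kidney edgeR called 0 of 18 members for BPA against vehicle (0.136% of all rows called; 2 at an unadjusted p below 0.05; 1 by DESeq2). For Mix against vehicle it called 0 (0.0273%; 2 unadjusted; 0 by DESeq2), and for Mix against BPA 0 (2.93%; 3 unadjusted; 2 by DESeq2). Of all 11000 rows, 2306, 1012 and 1699 had an unadjusted p below 0.05, in the same order. Cyp2e1, the ethanol-oxidising form, read 488, 538 and 405 CPM under vehicle, 288, 257 and 224 under BPA and 274, 674 and 448 under Mix. BPA lay below all vehicle values (log2 change -0.90 ± 0.27, adjusted p = 0.113), and the member was called by DESeq2 and by edgeR without the first or the second Mix rat. Cyp2c23 read 2454, 1959 and 1672 under vehicle, 1446, 1542 and 1109 under BPA and 2397, 3027 and 1648 under Mix (BPA against vehicle adjusted p = 0.216). Proximal tubule markers took 0.905, 1.19 and 0.935% of counts in the BPA kidneys and 1.42, 1.21 and 1.41% in the vehicle ones; their part in the lower values was not tested.

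Ribosomal RNA rows took 16.4 to 37.2% of counts in the male BPA kidneys against 1.71 to 3.50% in the vehicle ones, and their part in these values was not tested beyond the fit that holds it as a covariate. In that fit no member was called for BPA or Mix against vehicle, and Cyp2c7 was called for Mix against BPA; without the first Mix rat Cyp2c24 and Cyp2e1 were called there instead. Cyp2c24 varied widely from rat to rat: 29.4, 45.2 and 23.2 CPM under vehicle, 0, 38.8 and 55.8 under BPA, and 135, 0.862 and 0.873 under Mix. The first Mix rat also carried 43.9 CPM of Cyp2c7, beside 0.246 and 1.60 in the other Mix rats. The same kidney library held 245 plain CPM of albumin, beside 11.2 and 88.2 in the other Mix rats, and the sperm-cell transcript Tnp1 read 751 to 1462 in the 3 Mix kidneys, 30.5 to 143 in the BPA ones and 220 to 404 in the vehicle ones. The part of these transcripts of other organs in the kidney values was not tested. Without the first Mix rat the log2 change of Cyp2c7 under Mix went from 3.44 to -0.58. Cyp2c11 read 13.6, 18.4 and 21.1 CPM under vehicle, 2.43, 32.8 and 10.5 under BPA and 62.7, 24.9 and 10.6 under Mix, and Cyp2d5 103 to 170 CPM under vehicle, 89.6, 115 and 226 under BPA and 253, 194 and 115 under Mix, each with overlapping groups. Cyp2d1 was steadier, at 72.3, 78.8 and 66.1 CPM under vehicle, 66.2, 96.2 and 127.8 under BPA and 86.6, 94.8 and 81.4 under Mix.

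In female kidney edgeR called 0 of 21 members for BPA against vehicle (0% of all rows called; 4 at an unadjusted p below 0.05; 1 by DESeq2), 0 for Mix against vehicle (0%; 4 unadjusted; 1 by DESeq2) and 0 for Mix against BPA (0%; 1 unadjusted; 0 by DESeq2). Of all 10681 rows, 1754, 1111 and 779 had an unadjusted p below 0.05, in the same order. Cyp2c23 read 1888 and 1097 under vehicle, 1997 and 2008 under BPA and 3116, 2803 and 2991 under Mix. All Mix values lay above the others (log2 change against vehicle 0.99 ± 0.25, adjusted p = 0.353). Proximal tubule markers were also highest under Mix, at 0.927, 1.16 and 1.05% of counts beside 0.788 and 0.856% under vehicle and 0.711 and 0.881% under BPA; their part was not tested. Cyp2d2 read 137 and 67.1 under vehicle, 200 and 270 under BPA and 207, 169 and 134 under Mix. Cyp2j4, a fatty acid epoxygenase, read 14.0 and 13.2 under vehicle, 3.51 and 6.04 under BPA and 5.34, 4.15 and 1.43 under Mix (adjusted p = 0.262 and 0.361). Its treated values lay below both vehicle values. Of the 21 members, 7 had groups that did not overlap for BPA against vehicle and 6 for Mix against vehicle. The share of all rows was not counted. Cyp2d3 read 2.83 and 3.10 CPM under vehicle, 4.92 and 7.38 under BPA and 8.004, 7.64 and 7.85 under Mix, and Cyp2d4 9.92 and 7.61 CPM under vehicle, 13.5 and 23.04 under BPA and 13.8, 13.6 and 12.4 under Mix; all treated values of both lay above vehicle without a call. Cyp2e1 read 771 and 148 CPM under vehicle, 860 and 831 under BPA and 762, 988 and 512 under Mix, so the 2 vehicle rats themselves differed more than any treated pair.

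The first female vehicle rat of the kidney set weighed on these counts. Without it, Cyp2c23, Cyp2d2 and Cyp2e1 were called against vehicle under both BPA and Mix, with the single remaining vehicle rat assumed to vary like the other groups. The rat left out had 37.1% ribosomal RNA and the remaining one 19.2%, and with that share as a covariate in the full fit the same 3 members were called under both treatments. The share of all rows called in either fit is not given here, so whether these members stood out cannot be read from it. Cyp1a1 read 4.86 and 3.10 CPM under vehicle, 7.91 and 2.24 under BPA and 1.97, 2.33 and 2.71 under Mix. Its groups overlapped for BPA, and its values lay lower under Mix than under vehicle without a call.

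Outside liver and kidney, the libraries with the most albumin, a hepatocyte transcript, were 3 thyroid libraries, and these also held the most Cyp2c7. Among the thyroid libraries, Cyp2c7 read 105 and 50.2 plain CPM in the first 2 female vehicle rats, in which albumin read 2804 and 850. In the third female vehicle rat they read 0 and 51.5. The third male vehicle thyroid held 36.8 of Cyp2c7 and 1073 of albumin, while the other 15 thyroid libraries had at most 9.22 and 98.5. The first female vehicle thyroid also held 28.7 of Cyp2c11 and 27.6 of Cyp2c13, the male liver forms, which read at most 0.723 and 7.23 in female vehicle liver, and 2929 of Tnp1, a sperm-cell transcript that read at most 17.7 in any female liver. These values of another organ and sex stand beside every thyroid result below, and their part in it was not tested.

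**Figure D5:**
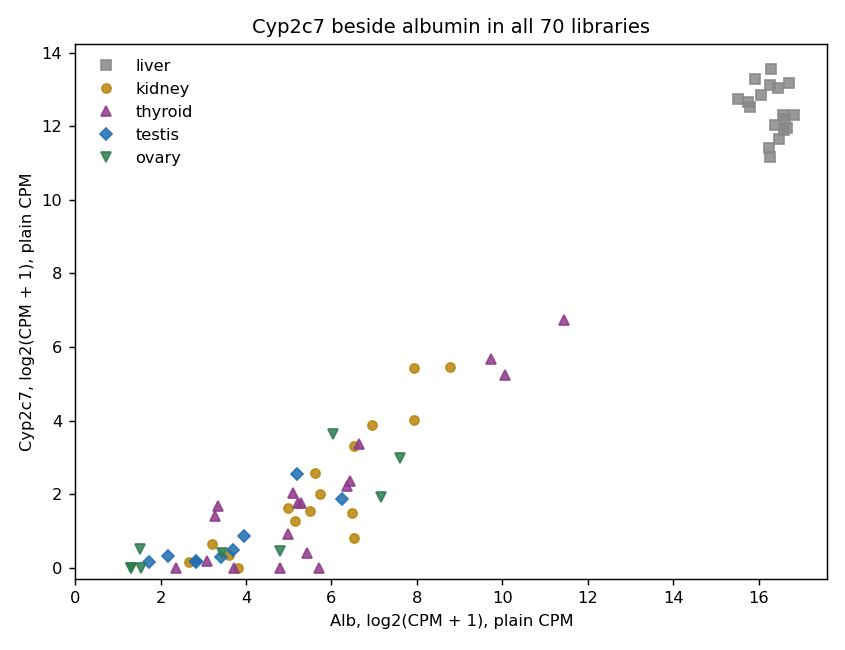
Cyp2c7 against albumin (Alb) in each of the 70 libraries, both as log2(plain CPM + 1), with symbols by organ. Liver libraries sit apart at the upper right, and among the others the 3 thyroid libraries with 2804, 1073 and 850 CPM of albumin lie farthest to the right. Some kidney libraries with less albumin reach as much Cyp2c7 as the thyroid library with 1073 (42.9 and 42.4 CPM beside 36.8).

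In male thyroid edgeR called 0 of 15 members in each of the 3 comparisons (0% of all rows in each; 2, 0 and 0 at an unadjusted p below 0.05 for BPA, Mix and Mix against BPA; 0 by DESeq2 in each). In female thyroid it called 0 of 13 for BPA (0% of all rows; 4 unadjusted; 1 by DESeq2), 0 for Mix (0.00899%; 2 unadjusted; 1 by DESeq2) and 0 for Mix against BPA (0%; 0 unadjusted; 0 by DESeq2). The DESeq2 call in both was Cyp2d1, which read 9.23, 7.82 and 8.63 CPM under vehicle, 1.24, 0.141 and 1.26 under BPA and 1.34, 1.28 and 1.46 under Mix. All 3 vehicle values stood above all treated ones. Albumin read 2804, 850 and 51.5 plain CPM in these 3 vehicle libraries, and its part was not tested. The edgeR adjusted p was 0.328 for BPA and 0.120 for Mix. Of all 11119 rows in male thyroid, 915, 551 and 1533 had an unadjusted p below 0.05 for BPA, Mix and Mix against BPA. In female thyroid 1485, 2561 and 650 of 11127 rows did.

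Cyp2e1 read 99.9, 103 and 118 in the female vehicle thyroids, 8.67, 61.0 and 13.1 under BPA and 45.0, 66.6 and 23.7 under Mix (adjusted p = 0.333 and 0.272). Adipocyte markers took 0.0612, 0.185 and 0.493% of counts in these vehicle libraries, 0.0338, 0.111 and 0.0776% under BPA and 0.0407, 0.114 and 0.0263% under Mix, so in each treated group the library highest in Cyp2e1 was also highest in them. Thyroid follicle markers took 5.43, 2.87 and 2.70% under vehicle and 5.11 to 7.75% in the treated libraries, and the part of neither list was tested. Ribosomal RNA rows took 0.660 to 3.26% under vehicle, 1.93 to 7.41% under BPA and 11.7 to 23.7% under Mix. With that share as a covariate the fall of Cyp2e1 under Mix (log2 change -1.24) turned to a rise, as given in the section on processing. Without the first female vehicle rat Cyp2r1 was called under BPA, and Cyp2r1 and Cyp3a9 under Mix. Without the third, Cyp2c6v1 and Cyp2d2 were called under BPA, and these and Cyp1a2 under Mix. Cyp2u1, a long-chain fatty acid hydroxylase, read 2.96, 4.90 and 3.89 CPM in male vehicle thyroid and 5.64, 5.59 and 8.003 under Mix (adjusted p = 0.922). Cyp2t1 in male thyroid read 29.6, 21.4 and 27.9 CPM under vehicle, 36.3, 19.4 and 27.5 under BPA and 22.9, 21.6 and 16.5 under Mix, and Cyp2e1 13.6, 12.3 and 50.1 CPM under vehicle, 20.0, 43.5 and 13.5 under BPA and 7.28, 50.9 and 10.04 under Mix. The spread of Cyp2e1 within each group was wider than the differences between groups. In female thyroid Cyp2j3 read 19.4, 16.5 and 6.30 CPM under vehicle, 6.05, 10.7 and 6.51 under BPA and 7.77, 7.21 and 8.55 under Mix, and Cyp2f4 2.15, 6.51 and 10.3 CPM under vehicle, 4.54, 11.98 and 6.96 under BPA and 2.84, 5.60 and 2.00 under Mix.

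In testis edgeR called 0 of 13 members for BPA (0% of all rows called; 1 at an unadjusted p below 0.05; 1 by DESeq2), 0 for Mix (0%; 1 unadjusted; 0 by DESeq2) and 0 for Mix against BPA (0.775%; 2 unadjusted; 0 by DESeq2). Of all 11098 rows, 1337, 591 and 1913 had an unadjusted p below 0.05, in the same order. Cyp2t1 read 23.4, 33.6 and 31.9 CPM under vehicle, 29.4, 64.9 and 76.2 under BPA and 34.3, 42.8 and 27.6 under Mix (BPA against vehicle adjusted p = 0.271), and without the first BPA rat it was called. Cyp2c23 read 0.324, 0.707 and 1.71 under vehicle, 0.431, 0.351 and 0.515 under BPA and 5.74, 1.40 and 5.06 under Mix. All Mix values were above all BPA values, by a log2 of 3.19 ± 0.68 (adjusted p = 0.0502), and without the first BPA rat Cyp2c23 and Cyp2t1 were called in that comparison.

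Cyp2a1, a liver form that is also known from testis, read 15.3, 4.77 and 15.6 CPM under vehicle, 7.33, 37.96 and 7.09 under BPA and 22.3, 6.63 and 24.1 under Mix. Its groups overlapped throughout. Cyp3a62 was steady, at 8.93 to 9.93 under vehicle, 7.97 to 17.0 under BPA and 5.74 to 9.81 under Mix. Cyp2a3 and Cyp2s1, which had their highest organ median in testis, read 4.42, 1.94 and 3.82 CPM under vehicle, 1.94, 3.16 and 3.99 under BPA and 4.48, 4.08 and 5.82 under Mix, and 4.53, 4.86 and 6.94 CPM under vehicle, 6.04, 6.80 and 7.22 under BPA and 7.71, 4.21 and 4.55 under Mix. Cyp2u1 read 5.72, 7.78 and 10.1 CPM under vehicle, 10.5, 7.50 and 7.47 under BPA and 6.72, 6.12 and 7.84 under Mix. Albumin in the testis libraries was at most 74.6 CPM.

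In ovary edgeR called 1 of 12 members for BPA against vehicle (6.79% of all rows called; 3 at an unadjusted p below 0.05; 2 by DESeq2). For Mix against vehicle it called 0 (9.12%; 0 unadjusted; 0 by DESeq2), and for Mix against BPA 0 (0.212%; 3 unadjusted; 0 by DESeq2). The member was Cyp2c6v1, a liver form, which read 2.41, 6.26 and 1.14 CPM under vehicle, 0.229, 0 and 0.152 under BPA and 2.99, 0.528 and 0.319 under Mix. The log2 change was -4.39 ± 1.21 (adjusted p = 0.0470). The call was lost with ribosomal RNA as a covariate (adjusted p = 0.321), without any 1 of the 6 vehicle and BPA rats (adjusted p from 0.0534 to 0.180) and without the third Mix rat (0.0588). Of all 10871 rows, 2560, 2767 and 1304 had an unadjusted p below 0.05 for BPA, Mix and Mix against BPA.

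Albumin in the same libraries read 143, 194 and 1.88 plain CPM under vehicle and 1.48, 26.8 and 1.48 under BPA, so the 2 vehicle ovaries with more Cyp2c6v1 were those with more albumin. The same 2 rats gave the female vehicle thyroids with the most albumin. The sperm-cell transcript Tnp1 read 218, 440 and 0.433 under vehicle and 46.2, 0.543 and 4.10 under BPA. Cyp2c13, a male liver form, read 1.04, 2.46 and 0 under vehicle and 0, 0.362 and 0 under BPA. The part of these transcripts of other organs in the result was not tested. Cyp2d2 read 0 in all 3 BPA ovaries and 2.11, 5.52 and 0.490 under vehicle (adjusted p = 0.0551), and Cyp2c7 read 2.86, 8.28 and 0.490 under vehicle and 0, 0.346 and 0 under BPA. The members read evenly in ovary did not pass. Cyp2t1 read 15.3 to 27.9 under vehicle, 20.2 to 29.4 under BPA and 21.7 to 26.4 under Mix, and Cyp2u1 read 5.87 to 10.7, 7.96 to 14.3 and 7.79 to 15.6. Cyp2e1 read 5.73, 11.8 and 7.02 CPM under vehicle, 3.43, 9.35 and 3.65 under BPA and 13.5, 1.58 and 2.39 under Mix, and Cyp2j3 3.47, 2.21 and 2.45 CPM under vehicle, 4.47, 4.33 and 3.04 under BPA and 3.25, 1.58 and 4.79 under Mix.

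Some of the other targets of AhR, CAR and PXR changed in ovary. Of 14 such genes tested, 6 rose and 0 fell under BPA (6.79% of all rows called), and 5 rose and 1 fell under Mix (9.12% of all rows called); the list's median log2 change was 0.55 and 0.85, beside 0.01 for all rows in both. Granulosa markers took 0.167 to 0.337% of counts in the BPA ovaries and 0.0870 to 0.143% in the vehicle ones, and Leydig and theca markers 1.11 to 1.43% in the Mix ovaries and 0.739 to 1.02% in the vehicle ones; their part in these changes was not tested. Ephx1, the microsomal epoxide hydrolase, read 32.9, 34.4 and 26.3 CPM under vehicle, 122, 174 and 112.7 under BPA and 106, 98.7 and 174 under Mix (adjusted p = 0.000695 and 0.00116). Gsta2, a glutathione transferase, averaged 4.95 under vehicle, 36.6 under BPA and 33.2 under Mix (adjusted p = 0.00141 and 0.00185). Aldh1a1, Fmo1 and Abcb1a also rose under both, Abcb1b rose under BPA, and Ugt1a1 fell under Mix. Ribosomal RNA rows took 20.7 to 29.4% of counts in the vehicle ovaries, 12.4 to 19.1% in the BPA ones and 18.7 to 23.8% in the Mix ones. Their part in the changes of these targets was not tested. Cyp1a1, Cyp1b1, Cyp2b1, Cyp2b2 and all Cyp3a members were too low in ovary to pass the filter on low counts.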

How the data were processed

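Per the labels, RNA was extracted with TRIzol and 3′ tag libraries were made with a QuantSeq kit. The submitters' processing notes name FastQC, Bowtie2, bedtools, edgeR and the genome build rn6, with no versions. The authors deposited 1 table of whole-number read counts, 17048 genes by 70 libraries, per the file headers; strand and the handling of reads that map to several genes are not given in the sources used here.

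From these counts, each organ and sex was fitted in R 4.3.3 with edgeR 4.0.16 (filterByExpr by group, TMM, quasi-likelihood test), with its 3 treatment groups in 1 fit. Liver, kidney and thyroid were also fitted with both sexes together. P-values were adjusted over all genes tested (Benjamini-Hochberg, threshold 0.05) and measure the spread between rats, some of which may be litter mates. Alternatives were DESeq2 1.42.0, RLE size factors, no low-count filter, the replicate number as a block, the ribosomal RNA share as a covariate and each library left out. The fits were tested on simulated data with known changes, for BPA against vehicle. In male liver 42.3% of 2-fold and 80.2% of 4-fold changes were called, and in female kidney 4% and 63%. A member not called is therefore not shown to be unchanged.

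The members and gene lists were chosen with earlier results of these data known. Members named are those called, or else up to 3 with the smallest p among well-read ones, plus a written list of AhR, CAR and PXR targets, sex-dependent forms and other members; values shown beyond these were chosen after being seen. A fold against a group at 0 is a bound set by 3 counts per library. Promoter sequences were aligned globally. Not every result of the gene lists is reported here.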

Additional observations from a re-analysis of the deposited data

Results flagged for a closer look

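The effect of BPA on Cyp2a1 in liver differed between the sexes by a test of the difference itself: -1.63 on the log2 scale, female minus male (edgeR interaction, adjusted p = 0.0307). All 3 BPA males lay above all vehicle males and all 3 BPA females below all vehicle females. Hepatocyte markers took 9.17 to 9.21% of counts in the BPA and 11.2 to 14.1% in the vehicle females, and 14.1 to 14.5% in the BPA and 13.2 to 14.1% in the vehicle males; their part in this difference was not tested.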

How the results depend on the processing

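With RLE size factors and with the replicate block all 29 counts of called members stayed within 1.5 times the reported ones. With DESeq2, 11 counts moved by more than 1.5 times: 3 in female liver under BPA, 2 in male kidney for Mix against BPA, 2 in ovary under BPA, and 1 each in male liver, male kidney, female kidney, female thyroid and testis under BPA, in female kidney and female thyroid under Mix, and in female liver for Mix against BPA. It called 15 members between the sexes in liver and 9 in kidney. Without the low-count filter the counts past that margin were 5 in female liver under BPA, 3 for the interaction of sex and BPA, 2 each in male liver under BPA, female liver under Mix, female liver for Mix against BPA and ovary under BPA, and 1 each in female kidney under BPA and testis for Mix against BPA. With the ribosomal RNA share as a covariate they were 3 in female kidney under BPA and 3 under Mix, 1 each in male kidney and testis for Mix against BPA, and 0 in ovary under BPA. The shares of all rows called in these other fits are not given here.

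Leaving out 1 library at a time gave between 10 and 15 members between the sexes in liver and between 3 and 7 in kidney. For the interaction of sex and BPA it gave 0 or 1, and without the third BPA female Cyp2c13 was called and not Cyp2a1. Counts ranged from 0 to 1 for BPA against vehicle in male liver, male kidney, testis and ovary, and for both Mix comparisons in male liver. They ranged from 0 to 2 for BPA against vehicle in female liver and female thyroid and for Mix against BPA in male kidney and testis, and from 0 to 3 for both treatments in female kidney and for Mix in female thyroid. The other 13 counts were 0 throughout. The cause of these shifts was not tested.

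Directions turned in 24 cases, none in liver. With the ribosomal RNA covariate, Mix against vehicle turned to -0.28 for Cyp2a1 and -0.050 for Cyp2t1 in testis, -1.34 for Cyp2c7 in male kidney, 1.504 for Cyp2e1 in female thyroid and -0.050 for Cyp2t1 in ovary, and Mix against BPA to 0.58 for Cyp2f4 and 0.25 for Cyp2j4 in female thyroid and 0.15 for Cyp2t1 in ovary. With a library left out, Cyp2c7 in male kidney ran from -0.58 to 4.43 for Mix against vehicle and from -0.28 to 4.95 for Mix against BPA, Cyp2j4 in female thyroid from -1.47 to 0.26 (Mix against BPA), Cyp2u1 in testis from -0.37 to 0.025 (Mix) and Cyp3a62 in testis from -0.14 to 0.46 (BPA). In ovary, for Mix against BPA, Cyp2e1 ran from -1.45 to 0.73, Cyp2u1 from -0.086 to 0.40 and Cyp2t1 from -0.14 to 0.14, and for Mix against vehicle Cyp2t1 from -0.17 to 0.23.

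Replicate numbers did not pair the rats: the median correlation of same-numbered deviations was -0.07 to 0.11, and in male kidney 5 of 9 pairs exceeded 0.1. With the replicate block Cyp2e1 in ovary turned to -0.028 for Mix against BPA, 12 members were called between the sexes in liver, without Cyp2c6v1, and in ovary under BPA Cyp2d2 was called and Cyp2c6v1 was not (adjusted p = 0.0572). Summing rows with the same symbol was not run because no member has more than 1 row.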
